A study of Mus musculus with 3 samples.

Results

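The spots described here are 497 barcoded spots of mouse uterus at pregnancy day 7.5 that were chosen by their Dio3, Mt3 and Coch counts, out of 3939 spots kept from 3978 deposited. A spot of the 10x Visium slide captures RNA from a small area of a tissue section, which can hold several cells, so a spot is a region and not a cell. A spot was kept with at least 1000 unique molecular identifiers (UMIs, the count of captured RNA molecules). It became a Dio3 Mt3 Coch spot when Dio3, Mt3 and Coch together reached 2500 CPM, Prl8a2 lay below 60000 CPM, and the trophoblast genes Prl3d1, Prl4a1, Hand1 and Plac1 together lay below 1000 CPM. CPM is a gene's UMI count in a spot per 1e6 UMIs of that spot. The 8 genes of this rule are given below as a description, with no test, because their values selected the spots. All libraries formed 1 group, with no treatment or genotype named in the labels: frozen uterine sections from females on normal chow, raised with littermates to 8 weeks of age, paired with stud males and taken at pregnancy day 7.5. Strain is not given in the sources used here. There were 3 libraries, of which 1 held replicates 1 and 2 together and the others held replicate 3 and replicate 4. The 337 spots with at least 60000 CPM of Prl8a2 (251, 17 and 69 in the libraries of replicates 1 and 2, replicate 3 and replicate 4) and the 3105 remaining spots (1307, 931 and 867) of the same libraries served as the comparison classes.

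After implantation the stromal cells of the mouse uterus differentiate into decidual cells around the embryo, a change that depends on progesterone. Decidual tissue is known for secreted prolactin-family proteins such as that encoded by Prl8a2, for polyploid cells, and for natural killer cells that gather in it. Dio3 encodes the type 3 deiodinase, which inactivates thyroid hormone. Mt3 encodes a metallothionein, one of the small cysteine-rich proteins that bind zinc and copper and whose genes lie side by side in the genome. Coch encodes cochlin, a secreted protein best known from the inner ear.

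In GRCm38 (mm10), Dio3 lies on chr12:110279068-110281097 on the plus strand, and its neighbour Dio3os, a noncoding gene, on chr12:110275385-110278172 on the minus strand. Coch lies on chr12:51593341-51605771 (plus) and Prl8a2 on chr13:27345673-27354216 (plus). Mt3 on chr8:94152607-94154146 stands between Mt4 on chr8:94137197-94139031 and the pair of Mt2 on chr8:94172664-94173568 and Mt1 on chr8:94179082-94180327, all on the plus strand. Mt4, Mt2 and Mt1 were no part of the rule, and their levels in the Dio3 Mt3 Coch spots were all above those in the remaining spots, as given below. For that reason the 250 bases before the RefSeq start of each of these 4 genes are shown 5′ to 3′ (GRCm38.p6, plus strand). Capitals mark every match on either strand to TGCNCNC, a pattern looser than the metal response element core TGCRCNC, where R is A or G. The windows span chr8:94136954-94137203 for Mt4, chr8:94152357-94152606 for Mt3, chr8:94172368-94172617 for Mt2 and chr8:94178839-94179088 for Mt1.
Mt4: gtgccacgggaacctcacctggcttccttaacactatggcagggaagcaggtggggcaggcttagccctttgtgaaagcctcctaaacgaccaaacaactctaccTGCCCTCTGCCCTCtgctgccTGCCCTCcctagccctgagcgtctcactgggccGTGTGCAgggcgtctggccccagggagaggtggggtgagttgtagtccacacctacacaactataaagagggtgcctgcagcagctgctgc
Mt3: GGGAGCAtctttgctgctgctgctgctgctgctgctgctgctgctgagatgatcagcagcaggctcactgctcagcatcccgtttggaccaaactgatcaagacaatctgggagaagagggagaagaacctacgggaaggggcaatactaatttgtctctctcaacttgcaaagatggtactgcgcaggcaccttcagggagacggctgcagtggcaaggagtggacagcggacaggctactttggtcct
Mt2: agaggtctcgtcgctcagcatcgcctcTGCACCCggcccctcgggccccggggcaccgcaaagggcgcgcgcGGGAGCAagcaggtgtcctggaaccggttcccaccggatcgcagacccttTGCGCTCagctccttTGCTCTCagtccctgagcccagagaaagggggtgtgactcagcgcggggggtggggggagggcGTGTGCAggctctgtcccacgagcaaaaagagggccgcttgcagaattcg
Mt1: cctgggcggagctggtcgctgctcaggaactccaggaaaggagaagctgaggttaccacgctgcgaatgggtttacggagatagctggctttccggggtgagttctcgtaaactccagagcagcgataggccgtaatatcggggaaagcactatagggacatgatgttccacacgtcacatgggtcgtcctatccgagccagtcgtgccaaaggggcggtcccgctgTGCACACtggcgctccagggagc
The Mt4 window held 4 matches, at 145, 138, 124 and 91 bases before the start, and the Mt2 window held 5, at 223 to 50 bases before it. The Mt3 and Mt1 windows held 1 match each. Read on the matching strand, the Mt3 match and the Mt4 matches at 145, 138 and 124 bases lack the A or G of the core. So do the Mt2 matches at 178 and 113 bases. Of 32851 RefSeq promoter windows of this length, 44.4% held at least 1 match to the looser pattern and 1.28% held at least 4. GENCODE lists transcripts of Mt3, Mt2 and Mt1 that begin 139, 242 and 152 bases after the RefSeq start, and the bases before those starts are not in these windows. A match is a run of letters and was not tested as a site.

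The libraries held 16915926, 27279702 and 29953072 UMIs in 1811, 1081 and 1086 deposited spots, and 38, 1 and 0 spots were left out for low counts. The Dio3 Mt3 Coch spots had median depths of 8900, 22098.5 and 30316.5 UMIs in the libraries of replicates 1 and 2, replicate 3 and replicate 4. Remaining spots had 7751, 27716 and 26274, and Prl8a2-high spots 9578, 23821 and 31758. After each spot was thinned to 3000 UMIs, the median number of genes detected was 1388.5, 1355 and 1378 in the Dio3 Mt3 Coch spots, above the Prl8a2-high spots (1211, 1230 and 1196) and below the remaining spots (1476, 1458 and 1469). Mitochondrially encoded RNA made up a median of 1.14%, 0.859% and 0.931% of their UMIs. Visium slides carry a common set of barcodes, and the library of replicates 1 and 2 shared 780 barcodes with that of replicate 3 and 676 with that of replicate 4, which shared 825 with each other. With 3 paired libraries an exact test on a single value cannot go below p = 0.25, so depth and genes per spot were not tested.

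Dio3 Mt3 Coch spots made up a similar share of each library. They were 215 of 1773 kept spots (12.1%, exact 95% binomial interval 10.6 to 13.7) in the library of replicates 1 and 2, 132 of 1080 (12.2%, 10.3 to 14.3) in that of replicate 3 and 150 of 1086 (13.8%, 11.8 to 16.0) in that of replicate 4. The mean share was 12.7% ± 0.947 (SD, n = 3 libraries). The intervals cover counting error only, and they overlap. The marker sum alone admitted 234, 132 and 150 spots. The Prl8a2 limit then removed 19 spots of the library of replicates 1 and 2 and none of the others, and the trophoblast limit removed none. There was no gap in the marker sum at the threshold. The lowest chosen spots had 2502, 2522 and 2516 CPM, and the highest spots left out just below the threshold had 2489, 2474 and 2452 CPM. Between 2500 and 3000 CPM lay 33, 24 and 23 chosen spots, and between 2000 and 2500 CPM lay 44, 24 and 21 spots that were not chosen.

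**Figure D1:**
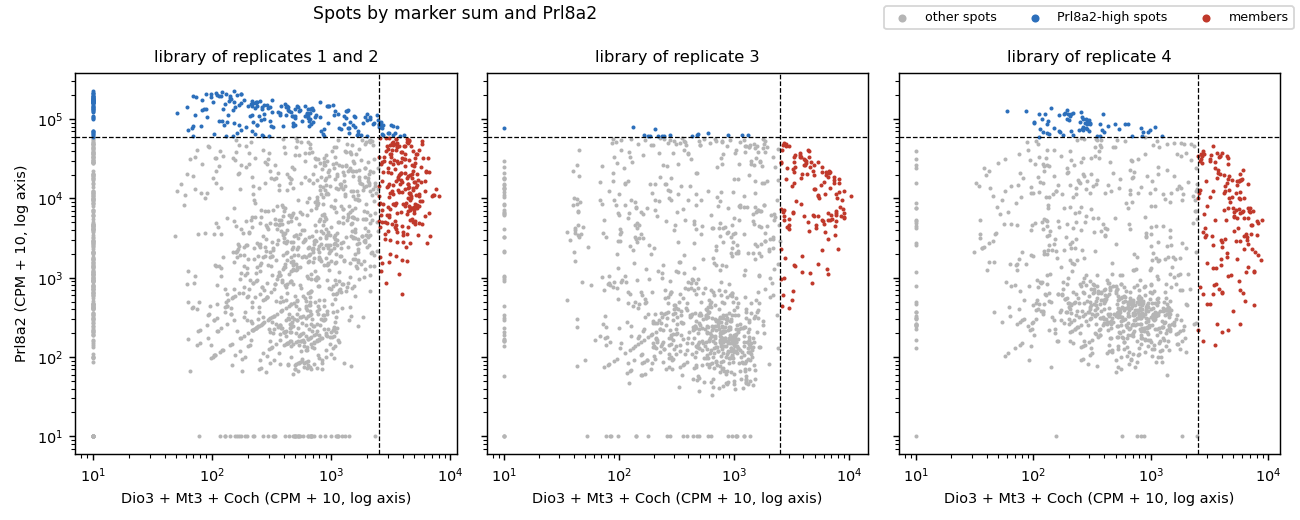
Each point is 1 kept spot of the named library, placed by the summed CPM of Dio3, Mt3 and Coch (horizontal, log axis, 10 added) and by the CPM of Prl8a2 (vertical, log axis, 10 added), with dashed lines at 2500 and 60000 CPM. The chosen spots (red, called members in the plots) continue the cloud of remaining spots (grey) without a gap, and the Prl8a2-high spots (blue) number 251, 17 and 69.

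The balance of the selecting genes differed between libraries. Dio3 had a median level of 2426 CPM over the chosen spots of the library of replicates 1 and 2 (lowest 493, highest 5835), 1722 CPM in that of replicate 3 (212 to 4842) and 1877 CPM in that of replicate 4 (267 to 4471). Mt3 had medians of 1060 CPM (0 to 2736), 2539 CPM (990 to 5090) and 2099 CPM (608 to 5752) in the same order. Dio3 was thus highest where Mt3 was lowest, in the library of replicates 1 and 2. Coch was the least counted of the trio, with medians of 476, 263 and 353 CPM and spots with no Coch UMI in every library. Dio3 had the most UMIs of the trio in 83.3% of the chosen spots of the library of replicates 1 and 2, 25.8% of those of replicate 3 and 41.3% of those of replicate 4, and Mt3 in 14.0%, 74.2% and 58.0%. Coch led in no spot, and 6, 0 and 1 spots had a tie for the lead. All 3 genes had at least 1 UMI in 92.6%, 97.7% and 99.3% of the chosen spots, at a median of 34, 104 and 139.5 marker UMIs per spot. The shares therefore come with a depth that differs between the libraries.

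Dio3 and Mt3 UMIs, compared over chosen spots thinned to 3000 UMIs, had Spearman's rho of -0.21 in the library of replicates 1 and 2 (200 spots), 0.30 in that of replicate 3 (131 spots) and 0.15 in that of replicate 4 (149 spots). Dio3 and Coch had 0.14, 0.34 and 0.17, and Mt3 and Coch 0.08, 0.20 and 0.08. These are descriptions across spots that share a library and were selected on the sum of the same genes. Prl8a2 spanned a wide range within the selection, from 614 to 58286 CPM (median 13034), from 408 to 49854 CPM (median 10203) and from 131 to 46480 CPM (median 6155) in the 3 libraries. The trophoblast genes summed to 7.47, 10.9 and 10.1 CPM over all chosen spots, and Prl4a1 and Hand1 had no UMI in those of replicates 1 and 2.

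Outside the rule, the Dio3 Mt3 Coch spots were set against the remaining spots of the same libraries, which asks what else differs between these classes. The metallothionein genes Mt4, Mt2 and Mt1, the creatine-synthesis gene Gatm, the calcification inhibitor Mgp and the Wnt antagonist Notum were higher in all 3 libraries. Natural killer cell, smooth muscle, interferon response and fibrillar collagen genes were lower. UMIs were summed per library and class, and edgeR's quasi-likelihood test was fitted with the library as a block, without the 8 rule genes. Calls needed a fold change of 1 or more in either direction on the log2 scale, and 0.05 was the limit for the p adjusted by the Benjamini-Hochberg method. Of 11308 genes tested, 503 (4.45%) were called higher and 1370 (12.1%) lower, and the median log2 fold change of all genes was -0.01. Levels of single genes in the following comparisons are CPM scaled by edgeR's trimmed mean of M-values without the rule genes. They are given in the order replicates 1 and 2, replicate 3, replicate 4, and fold changes are log2 values ± the standard error. Sums over a list are plain CPM without that scaling, also without the rule genes. Dio3, Mt3 and Coch had been picked as markers from an earlier clustering of these spots, so genes that vary with them were likely to differ. Each p-value reflects how differences between classes vary over 3 libraries, with each library's own level taken out by the block.

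The thyroid hormone genes other than Dio3 were low. Of 15 listed genes 10 could be tested, 1 rose and 6 fell (median -1.47), and Dio1, Dio2, Thrb, Slco1c1 and Hr were too low to test. The Prl8a2-high spots shared the low level. The list without Dio3 summed to 150 to 165 CPM in the chosen spots and 138 to 204 CPM in the Prl8a2-high spots, against 235 to 277 CPM in the remaining spots. Thra, the thyroid hormone receptor alpha, stood at 6.28, 7.73 and 7.81 CPM against 20.7, 16.5 and 20.1 CPM and fell by 1.37 ± 0.20 (adjusted p = 0.000226). The classes did not overlap for Thra, with 71 UMIs in all Dio3 Mt3 Coch spots together. Thrsp, a gene known to respond to thyroid hormone, rose by 1.55 ± 0.32 from a similarly low level, with 47 UMIs in those spots. Klf9, another such gene, stood at 62.8, 53.7 and 46.6 CPM against 41.9, 29.0 and 32.8 CPM, a log2 difference of 0.66 ± 0.12 that was not called for its size.

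Genes next to Dio3 in the imprinted cluster of chromosome 12 did not move together. Dio3os stood at 87.9, 74.5 and 79.2 CPM in the Dio3 Mt3 Coch spots and at 34.0, 45.2 and 37.2 CPM in the remaining spots. No library of the first class overlapped the second, and Dio3os rose by 1.05 ± 0.16 (adjusted p = 0.000324), which became 0.92 and lost its call without the library of replicates 1 and 2. The maternally expressed noncoding genes Meg3 and Rian fell by 2.52 ± 0.28 and 2.53 ± 0.35, to 26 and 10 UMIs in all Dio3 Mt3 Coch spots. The counting setting for strand is not given in the sources used here, and the Dio3os and Dio3 gene bodies do not overlap in the annotation.

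Of 15 tested genes for metallothioneins and metal transport, 4 rose and 1 fell. Mt4, a metallothionein known from stratified epithelia, stood at 1206, 1540 and 1679 CPM in the Dio3 Mt3 Coch spots and at 126, 56.8 and 121 CPM in the remaining spots. It rose by 3.87 ± 0.31 (adjusted p = 2.25e-06), the largest rise under the rule for named genes. Mt1 stood at 10854, 19552 and 16022 CPM against 2828, 5582 and 4543 CPM and rose by 1.86 ± 0.16 (adjusted p = 4.55e-06). Mt2 stood at 2245, 2461 and 2710 CPM against 546, 636 and 658 CPM and rose by 2.02 ± 0.22 (adjusted p = 1.98e-05). For each of these genes every library's value in the Dio3 Mt3 Coch spots lay above every value in the remaining spots. The copper exporter gene Atp7b rose as well (1.89 ± 0.21), while the zinc importer gene Slc39a10 fell by 1.12 ± 0.15. Mtf1, the factor that binds metal response elements, stood at 14.5, 10.9 and 11.3 CPM against 11.5, 12.2 and 12.4 CPM, with overlapping groups and a log2 difference of -0.01 ± 0.17.

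Creatine and arginine genes moved in both directions, 3 higher and 3 lower of 11 tested. Gatm, which encodes the first enzyme of creatine synthesis, stood at 4824, 4179 and 3725 CPM in the Dio3 Mt3 Coch spots and 1186, 748 and 684 CPM in the remaining spots and rose by 2.33 ± 0.18 (adjusted p = 1.57e-06). Ass1 and Asl, which turn citrulline into arginine, the substrate of that enzyme, rose by 1.69 ± 0.14 and 1.47 ± 0.12. Ckb, the brain-type creatine kinase, stood at 18.8, 32.7 and 25.6 CPM against 265, 170 and 271 CPM and fell by 3.15 ± 0.21 (adjusted p = 5.04e-07). The creatine transporter gene Slc6a8 differed by 0.61 ± 0.11 and was not called. The arginase gene Arg2 fell by 1.94 ± 0.64, on 8 UMIs in the Dio3 Mt3 Coch spots.

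The other genes with the largest rises encoded proteins of several kinds. Olr1, the receptor for oxidised low-density lipoprotein, stood at 220, 282 and 213 CPM against 26.7, 28.5 and 28.1 CPM and rose by 3.09 ± 0.16. The calcium-activated potassium channel gene Kcnn4 rose by 2.94 ± 0.17 and the dopamine receptor gene Drd4 by 2.91 ± 0.18. Notum, whose product removes the lipid from Wnt proteins, stood at 109, 151 and 93.5 CPM against 15.2, 20.2 and 12.8 CPM and rose by 2.87 ± 0.10 (adjusted p = 6.77e-09). Mgp, the matrix Gla protein, stood at 8918, 6158 and 6762 CPM against 1325, 831 and 915 CPM and rose by 2.85 ± 0.14 (adjusted p = 6.73e-08). Gpnmb, Perp, Anxa8 and Sprr2h rose by 2.77, 2.61, 2.60 and 2.59. Stra6, the receptor that takes up retinol, rose by 3.19 ± 0.15 and Wnt10a by 1.83 ± 0.12. The classes did not overlap in these 11 genes, which was likely beforehand because they were picked among called rises. The share of all tested genes without overlap is not given here.

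Decidual markers and cornified envelope genes rose in part, while steroid enzyme and prolactin-family genes mostly fell. Of 24 tested decidual markers 6 rose and 2 fell, the latter being Wnt6 (-2.04 ± 0.22) and Ptgs2, with 3 UMIs in the Dio3 Mt3 Coch spots. Erv3 rose by 2.34 ± 0.13, Fkbp5, a co-chaperone gene induced by steroid hormones, by 1.84 ± 0.11 and Hand2, a transcription factor of the progesterone response, by 1.05 ± 0.10. Hand2 stood at 608, 843 and 766 CPM and Bmp2, another gene of decidualization, at 499, 306 and 436 CPM, and Bmp2 differed by 0.63 ± 0.09 and was not called. Against the Prl8a2-high spots Erv3 was called lower, and Fkbp5 and Hand2 were not called. In the chosen spots the decidual list summed to 12299 to 14034 CPM over the libraries, against 9756 to 10841 CPM in the remaining spots and 37404 to 53625 CPM in the Prl8a2-high spots. Prl8a2, a rule gene and in no such sum, had pooled levels of 18421, 14692 and 10068 CPM in the chosen spots, as a description. In the remaining spots it had 6548, 5700 and 6791 CPM. The undecidualized stroma list was also higher, at 25226 to 30428 CPM against 14873 to 15599 CPM in the remaining spots and 12047 to 16630 CPM in the Prl8a2-high spots. Gpx3 made up most of this list's sum. These sums do not set the chosen spots apart as decidual rather than stromal, and the name decidua is used here only as a label. Of 10 steroid enzyme genes 1 rose and 5 fell (median -1.16). Hsd11b1, which activates glucocorticoid, rose by 1.52 ± 0.14, and Hsd11b2, which inactivates it, stood at 9.18, 18.3 and 12.8 CPM against 42.1, 31.3 and 32.5 CPM and fell by 1.34 ± 0.21. Star, Srd5a1, Akr1c18 and Hsd3b6 fell by 2.24, 2.45, 2.51 and 3.09. Among 8 tested cornified envelope and kallikrein genes 4 rose, with Sprr2d (3.94 ± 0.39) and Lor (2.52 ± 0.27) at low levels, and Klk8 fell. Of 11 prolactin-family genes Prl3c1 rose by 1.24 ± 0.25 with overlapping groups and 9 fell. The prolactin genes include near-identical copies, so their separate counts are uncertain.

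Natural killer cell genes fell furthest. All 15 tested genes of the list fell (median -6.68), against 12.1% of all genes. The granzyme gene Gzma stood at 0.966, 3.51 and 1.95 CPM in the Dio3 Mt3 Coch spots and at 113, 356 and 196 CPM in the remaining spots and fell by 6.68 ± 0.16 (adjusted p = 1.73e-10). Prf1, the pore-forming perforin, fell by 7.29 ± 0.28, with 11 UMIs in all Dio3 Mt3 Coch spots against 13713 in the remaining ones. Gzmb, Gzmc, Gzmd, Gzme, Gzmf and Gzmg fell by 6.38 to 7.41. Some of these granzyme genes are near-identical, and reads may have been split among them. The list summed to between 14.3 and 60.3 CPM over the libraries in the Dio3 Mt3 Coch spots and between 1970 and 9351 CPM in the remaining spots. It was low in the Prl8a2-high spots as well, at 21.2 to 107 CPM. In such spots, fewer cells of a type and less RNA per cell cannot be told apart.

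Genes of other cell types were lower too. Of 14 smooth muscle genes 12 fell (median -3.41), and Myh11, the smooth muscle myosin, fell by 3.89 ± 0.22 from 481, 181 and 265 CPM to 21.7, 21.4 and 15.2 CPM. Of 13 macrophage genes 10 fell (median -1.42), with Csf1r, the receptor of the macrophage growth factor, down by 2.79 ± 0.26. Of 13 interferon response genes 10 fell (median -2.05), among them Isg15 (-2.79 ± 0.22) and Ifi27l2a (-2.80 ± 0.15). That list summed to 297 to 313 CPM against 758 to 1160 CPM, and to 190 to 274 CPM in the Prl8a2-high spots. Of 12 uterine epithelium and gland genes 6 fell, with Krt19 down by 2.19 ± 0.26, and of 4 adult globin genes all fell. In these 5 lists and in the natural killer cell list edgeR's quasi-likelihood test called 0 genes higher, 0 rose at an unadjusted p under 0.05 and DESeq2 called 0 higher. Pericyte genes went the other way, with 4 of 8 higher: Rgs5 stood at 182, 168 and 208 CPM against 62.2, 70.4 and 56.1 CPM and rose by 1.57 ± 0.13, and Abcc9, Higd1b and Notch3 rose by 1.75, 1.96 and 1.28. The pericyte list summed to 295 to 353 CPM against 180 to 196 CPM, and the endothelial list to 794 to 886 CPM against 1160 to 1345 CPM, with 1 of 17 endothelial genes higher (Plvap, 1.98 ± 0.14) and 6 lower. Trophoblast genes outside the rule summed to 45.9 to 74.2 CPM against 134 to 359 CPM. The part that these cell types have in the other differences was not tested.

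Stromal matrix and glycolysis genes were mostly lower. Of 19 collagen and matrix genes 15 fell and Fbln2 rose (median -1.82). Fibronectin Fn1 fell by 2.58 ± 0.11 from 822, 585 and 576 CPM to 123, 96.2 and 107 CPM, and Col14a1 fell by 3.88 ± 0.17. Of 22 glycolysis and hypoxia genes 12 fell, with the lactate dehydrogenase gene Ldha down by 1.22 ± 0.14, and Vegfa rose by 1.18 ± 0.13. Of 21 lipid and cholesterol genes Lss rose and 9 fell. Of 15 proliferation genes edgeR called 0 higher and 0 lower, 11 were lower at an unadjusted p under 0.05 and DESeq2 called 0, with a median of -0.49. Of 10 genes listed for undecidualized stroma, 4 rose (among them Smoc2, 1.50 ± 0.11, and Gpx3, 1.15 ± 0.08) and 4 fell (among them Lum, -3.78 ± 0.17).

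**Figure D2:**
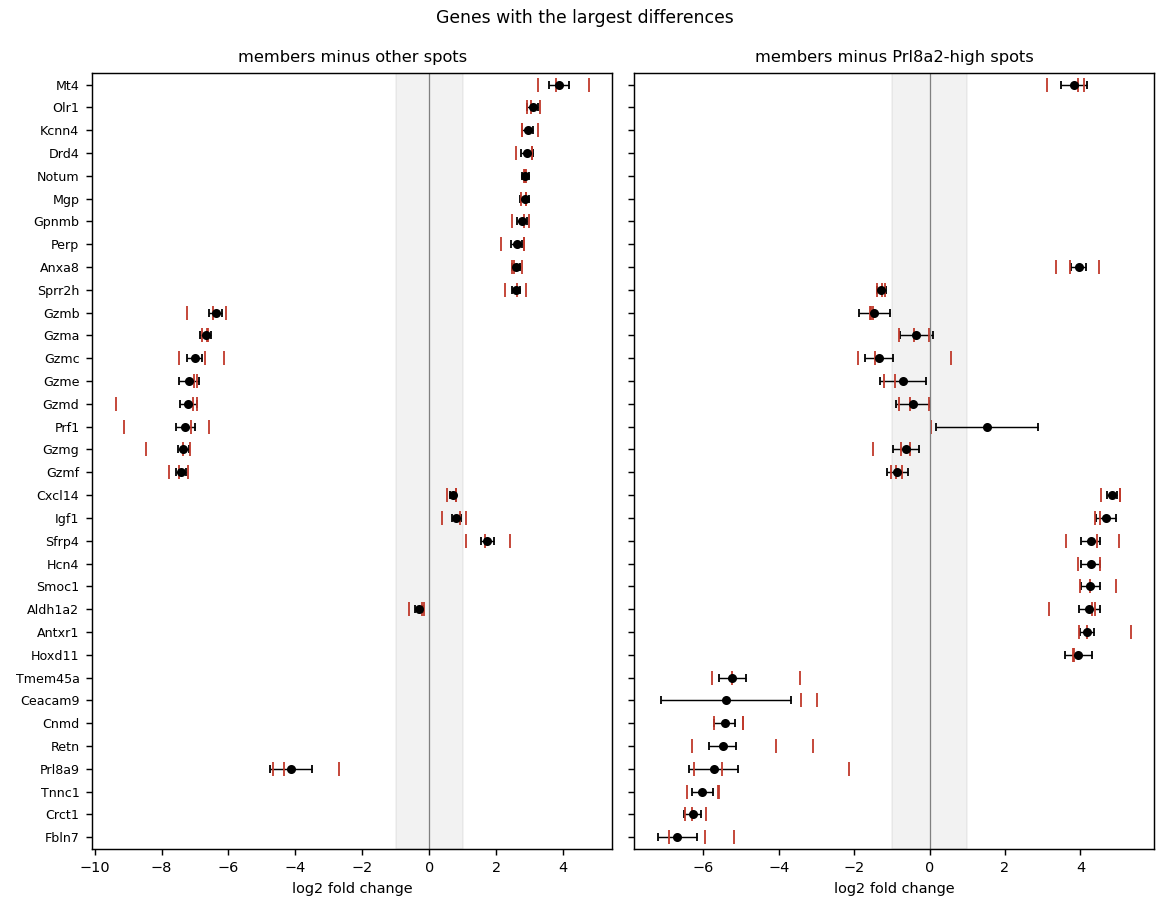
Log2 fold change (black point, bar of 1 standard error) of the genes reported here among those with the largest rises and falls in the Dio3 Mt3 Coch spots against the remaining spots (left) and against the Prl8a2-high spots (right), with red ticks for single libraries in which both classes had UMIs of the gene. The grey band spans log2 fold changes under 1 in size, and the granzyme genes lie near -7 on the left and within 2 of 0 on the right.

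The Prl8a2-high spots come from the same sections, and this comparison asks how the Dio3 Mt3 Coch spots differ from them. The Dio3 Mt3 Coch spots had more RNA of stromal genes (Cxcl14, Igf1, Sfrp4, collagens), of cell division genes and of Mt4 and Gatm. They had far less of prolactin-family genes, of lipid and cholesterol genes and of Cryab and Ckb. Of 11308 genes 1332 (11.8%) were called higher and 1352 (12.0%) lower, with a median of 0.06 over all genes. Without the library of replicate 4 the count of higher genes was 860. The library of replicate 3 had only 17 Prl8a2-high spots with 398715 UMIs, so low genes could be at 0 there. This comparison and the previous one share the sums of the Dio3 Mt3 Coch spots, and no overlap between them is given.

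Stromal and signalling genes led the rises. Cxcl14, a chemokine gene, stood at 1479, 1128 and 1879 CPM in the Dio3 Mt3 Coch spots and at 63.0, 34.2 and 56.7 CPM in the Prl8a2-high spots and rose by 4.84 ± 0.13 (adjusted p = 1.93e-09). Igf1, an insulin-like growth factor, stood at 134, 125 and 137 CPM against 6.30, 0 and 5.94 CPM and rose by 4.68 ± 0.27 (adjusted p = 1.86e-07). Sfrp4, a secreted Wnt antagonist, stood at 797, 1115 and 807 CPM against 65.0, 34.2 and 36.9 CPM and rose by 4.27 ± 0.25 (adjusted p = 1.97e-07). The classes were separated in every library for each of them. The ion channel gene Hcn4 rose by 4.27 ± 0.25, Smoc1 by 4.26 ± 0.25, Antxr1 by 4.16 ± 0.19, Anxa8 by 3.95 ± 0.20 and the homeobox gene Hoxd11 by 3.94 ± 0.36. Of 13 retinoid genes 4 were higher and 1 lower: Aldh1a2, which makes retinoic acid, rose by 4.24 ± 0.29, Stra6 by 3.60 ± 0.24, Rbp4 by 2.05 ± 0.40 and Dhrs3 by 1.05 ± 0.12, while Crabp2 fell by 3.33 ± 0.37. Hcn4, Hoxd11 and Stra6 had no UMI in the Prl8a2-high spots of replicate 3.

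Of the neighbours of Mt3 and Dio3, Mt4, Mt2 and Dio3os were called higher than in the Prl8a2-high spots, and Mt1, Meg3 and Rian were not called. Mt4 stood at 70.3, 177 and 109 CPM in the Prl8a2-high spots and differed by 3.83 ± 0.34 (adjusted p = 3.62e-06). Mt2 stood at 1031, 1583 and 627 CPM there and differed by 1.26 ± 0.22 (adjusted p = 0.000617). Mt1 stood at 8385, 21112 and 8520 CPM there, overlapping the values of the Dio3 Mt3 Coch spots, and its difference of 0.37 ± 0.16 did not pass (adjusted p = 0.0808). Dio3os stood at 19.4, 3.11 and 13.9 CPM and differed by 2.36 ± 0.25. Meg3 and Rian differed by 0.16 ± 0.59 and 0.31 ± 0.79, on 10 and 3 UMIs in the Prl8a2-high spots. Zinc transporter genes were lower in the Dio3 Mt3 Coch spots, with 6 of 15 genes of the metal list called lower: Slc39a14, a zinc and iron importer, fell by 3.05 ± 0.18 and Slc30a1, the zinc exporter of the plasma membrane, by 2.23 ± 0.15. Gatm stood at 1102, 523 and 361 CPM in the Prl8a2-high spots and rose by 2.81 ± 0.19 (adjusted p = 4.66e-07), while Asl fell by 1.93 ± 0.12 and Ckb by 3.16 ± 0.22. The amino acid and thyroid hormone transporter gene Slc7a8 rose by 2.54 ± 0.28, and Slc16a10, another such transporter, fell by 4.38 ± 0.49 on 9 UMIs.

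Lists of whole processes were shifted. All but 1 of the 15 proliferation genes were higher (14, median 1.64, against 11.8% of all genes), with the mitotic cyclin gene Ccnb1 at 46.9, 23.9 and 37.7 CPM against 6.79, 6.22 and 5.94 CPM (2.56 ± 0.28), Top2a at 1.85 ± 0.23 and Birc5 at 1.82 ± 0.26. Of 19 collagen and matrix genes 14 were higher (median 1.78), with Col1a2 at 251, 273 and 296 CPM against 54.8, 24.9 and 26.4 CPM (2.91 ± 0.22). Of 14 smooth muscle genes 8 were higher, of 6 MHC class II genes 5, and of 10 undecidualized stroma genes 5. The smooth muscle list summed to 1569 to 1843 CPM against 386 to 808 CPM, and the MHC class II list to 103 to 146 CPM against 37.5 to 41.6 CPM. The part of such cells in the other differences was not tested. Macrophage genes were split, with 6 higher (C1qb 1.58 ± 0.25) and 3 lower (Csf1r -4.53 ± 0.27, Cd68 -4.31 ± 0.27 and Cd14).

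Prolactin-family, lipid and steroid enzyme genes were mostly lower. The Prl8a2-high spots were chosen by a prolactin-family gene, so genes that follow Prl8a2 were likely to be lower here. They also had no trophoblast limit, and the 4 trophoblast rule genes together reached 7742 CPM in a spot of replicates 1 and 2. Of 11 prolactin-family genes 9 were lower (median -4.92), with Prl3c1 at 467, 285 and 569 CPM against 13274, 4979 and 31924 CPM (-4.95 ± 0.29, adjusted p = 1.97e-07). The prolactin receptor gene Prlr was the 1 gene of that list that rose (2.51 ± 0.56), on 6 UMIs in the Prl8a2-high spots. Cryab, a small heat shock protein, stood at 2043, 2928 and 2028 CPM against 17660, 23373 and 22026 CPM and fell by 3.17 ± 0.14 (adjusted p = 2.71e-08). Fabp4, a fatty acid carrier, fell by 3.55 ± 0.15 from 8494, 8693 and 12093 CPM to 637, 983 and 879 CPM, and it was 1 of 13 lower genes of 21 in lipid and cholesterol metabolism, together with the cholesterol-synthesis genes Sqle (-4.04 ± 0.24) and Fdps (-3.02 ± 0.23). Crct1 fell by 6.28 ± 0.23, the troponin gene Tnnc1 by 6.03 ± 0.28, Cnmd by 5.44 ± 0.28 and the hormone gene Retn by 5.49 ± 0.35. Of 10 steroid enzymes 7 were lower, with Cyp11a1, the first enzyme of steroid synthesis, down by 1.08 ± 0.10 and Hsd11b1 by 1.17 ± 0.14, the latter with overlapping groups. Sprr2h, which was higher than in the remaining spots, was lower than in the Prl8a2-high spots (-1.28 ± 0.11).

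**Figure D3:**
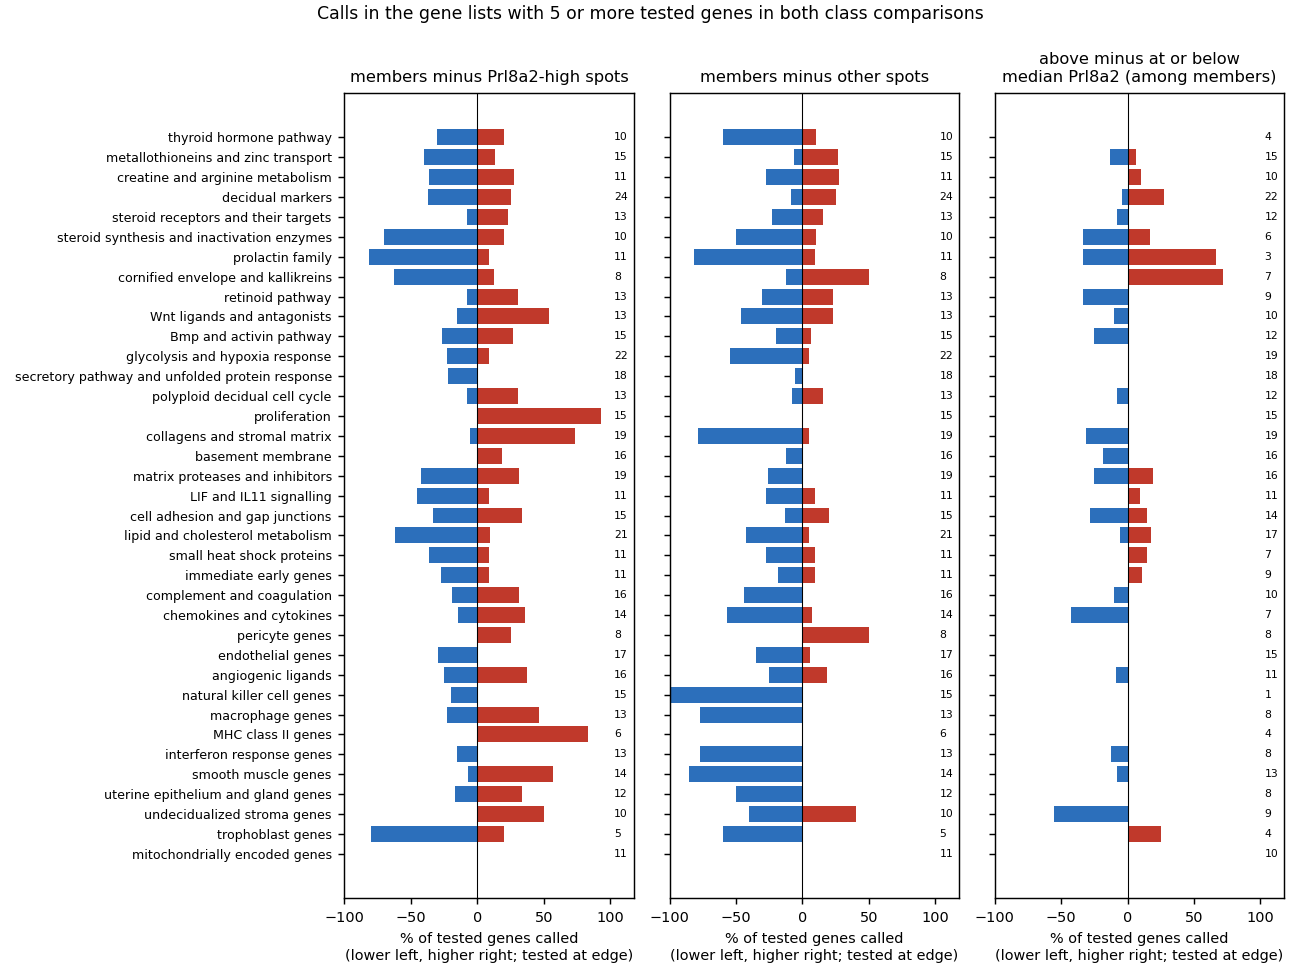
Share of the tested genes of each list that were called higher (red, right of 0) or lower (blue, left of 0), in percent, against the Prl8a2-high spots, against the remaining spots, and between chosen spots above and at or below the median Prl8a2, for lists with 5 or more tested genes in both class comparisons. The number at the right edge is the genes tested, and all 15 natural killer cell genes are lower in the middle panel, and 14 of 15 proliferation genes are higher in the left one.

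Among the Dio3 Mt3 Coch spots themselves, those with more Prl8a2 differed from those with less. The spots of each library were divided at the library's median Prl8a2 (13034, 10203 and 6155 CPM), which gave 107 and 108, 66 and 66, and 75 and 75 spots. The marker sum had medians of 3871 and 4000, 4441 and 4901, and 4468 and 4982 CPM above and at or below the median. Its parts were not equal. In the same order, pooled Mt3 stood at 1065 and 1298, 2637 and 2664, and 1896 and 2707 CPM. Pooled Dio3 stood at 2413 and 2243, 1924 and 2111, and 2197 and 1987 CPM. These values are a description, with no test. Of 8755 genes tested in the same way 190 (2.17%) were called higher and 226 (2.58%) lower above the median. DESeq2's Wald test called 116 and 106. Genes that follow Prl8a2 were likely to differ, since Prl8a2 made the division.

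Prl3c1, Fabp4, Cryab and Sprr2h, all lower in the Dio3 Mt3 Coch spots than in the Prl8a2-high spots, were higher in the spots above the median than in the others. Prl3c1 stood at 753, 533 and 1147 CPM against 232, 54.1 and 89.7 CPM and rose by 2.86 ± 0.24 (adjusted p = 2.21e-07). Fabp4 stood at 1009, 1702 and 1689 CPM against 334, 320 and 213 CPM and rose by 2.36 ± 0.16 (adjusted p = 2.63e-08), and Cryab rose by 1.79 ± 0.10 from 1193, 1184 and 895 CPM to 3094, 4839 and 3431 CPM. No library overlapped between the divisions in these genes. The transcription factor gene Tfap2c rose by 2.53 ± 0.22, Ptx3 by 2.49 ± 0.29, Ggt1 by 2.45 ± 0.21, the protease gene Htra1 by 1.96 ± 0.16 and Cyp11a1 by 1.39 ± 0.09. Of 7 cornified envelope and kallikrein genes 5 rose, among them Sprr2h, at 795, 1496 and 714 CPM against 174, 273 and 110 CPM (2.46 ± 0.10, adjusted p = 8.41e-11), Sprr2d (2.61 ± 0.20) and Psca (1.60 ± 0.10), and DESeq2 called 3 of the 5.

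Stromal genes were lower in the same spots. Igf1 stood at 51.8, 24.6 and 61.5 CPM above the median and at 209, 233 and 208 CPM at or below it and fell by 2.22 ± 0.18 (adjusted p = 1.81e-07). Cxcl14 stood at 609, 323 and 958 CPM against 2282, 1996 and 2763 CPM and fell by 2.00 ± 0.14 (adjusted p = 2.51e-08), and Fbn1, a microfibril gene, fell by 2.41 ± 0.16. Every library showed the fall. Hoxd11 fell by 1.92 ± 0.21, Susd2 by 1.87 ± 0.14, Myh10 by 1.85 ± 0.19, the Bmp antagonist gene Nog by 2.01 ± 0.24 and Sfrp4 by 1.51 ± 0.10. Of 9 undecidualized stroma genes 5 fell, and of 19 collagen and matrix genes 6 fell, of which DESeq2 called 2. The retinoid genes Aldh1a2, Rbp4 and Cyp26b1 fell by 1.78, 1.56 and 1.65, of 9 tested, and DESeq2 called 2 of these 3.

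Of the metallothionein neighbours of Mt3, only Mt4 was called in this division. Mt4 stood at 651, 855 and 1086 CPM above the median and at 1725, 2310 and 2268 CPM at or below it and fell by 1.29 ± 0.09 (adjusted p = 1.59e-08). With a marker sum of at least 1500 CPM the fall was 0.81 and with a Prl8a2 limit of 30000 CPM 0.97, both under the minimum size. Mt1 and Mt2 differed by 0.22 ± 0.09 and -0.10 ± 0.09, with overlapping groups. Gatm differed by -0.22 ± 0.07, Dio3os by 0.04 ± 0.12 and the pericyte gene Rgs5 by 0.16 ± 0.11, and none of the 3 was called. Whether Mt4 fell more than Mt1 or Mt2 was not tested. Mt3 itself, a rule gene outside the fit, had lower pooled levels above the median as well, as given above.

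**Figure D4:**
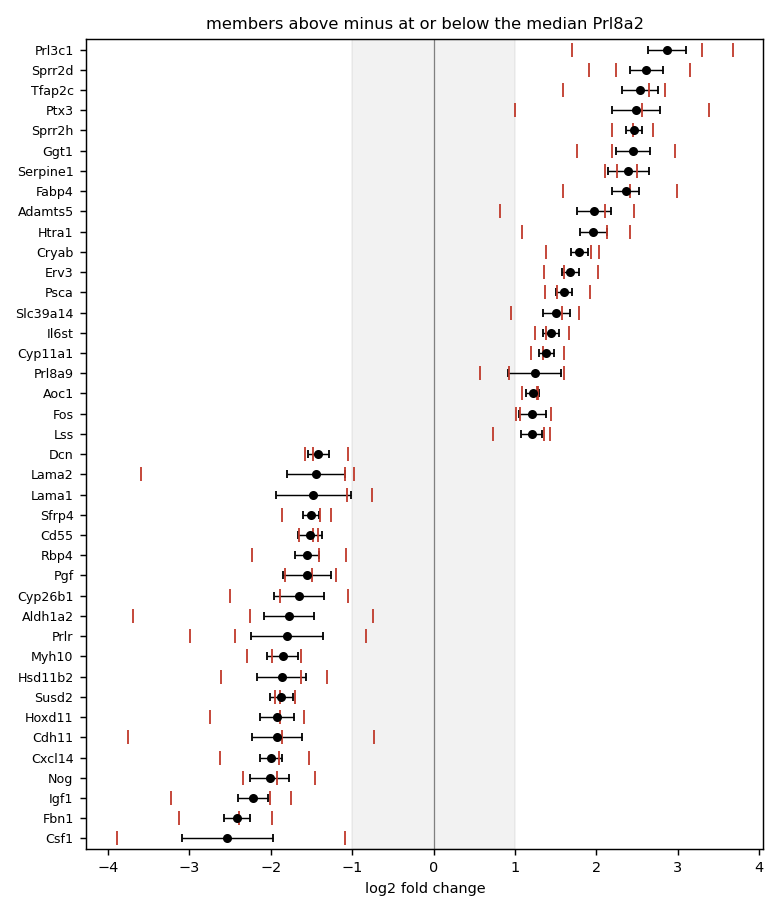
Log2 fold change (black point, bar of 1 standard error) between the chosen spots above and those at or below their library's median Prl8a2, for 40 called genes from the ends of the ranking of named genes, with red ticks for single libraries in which both divisions had UMIs of the gene. The grey band spans log2 fold changes under 1 in size, Prl3c1 lies at 2.86, and Igf1 lies at -2.22.

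The spots were also divided at the median share of Coch among the marker UMIs, and few genes were called. The medians of that share were 11.8%, 5.50% and 7.58%, at the median marker counts of 34, 104 and 139.5 UMIs given above. The share of a spot thus rests on few Coch UMIs, above all in the library of replicates 1 and 2, and counting error enters the division, so the low count of calls does not show that other genes were alike. Of 8787 genes edgeR's quasi-likelihood test called 0 higher (0%) and 1 lower (0.0114%) in spots with more Coch, while 383 had an unadjusted p under 0.05 and DESeq2 called 0 in either direction. The single gene was S100g, a calcium-binding protein gene, which fell by 1.04 ± 0.17 with overlapping groups and lost its call under DESeq2, without the block, with either other marker limit, in thinned spots and without the library of replicate 3. Leaving out the library of replicate 4 gave 10 genes higher and 7 lower, and leaving out that of replicate 3 gave 1 and 0.

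Along the marker sum, genes outside the rule changed before the threshold was reached. Spots within the Prl8a2 and trophoblast limits were binned by the CPM of Dio3, Mt3 and Coch together, and levels here are plain pooled CPM, with the genes shown chosen after their values were seen. Mt4 stood at 53.4, 21.9 and 38.0 CPM below 500 CPM of marker sum, at 815, 477 and 789 CPM between 1500 and 2500 CPM, and at 1293, 1867 and 1929 CPM from 4000 CPM up. Gatm went from 1130, 630 and 661 CPM in the lowest bin to 3650, 2716 and 2177 CPM just below the threshold and 5381, 4491 and 4239 CPM in the highest. Mgp kept climbing inside the selection, from 7383, 2938 and 4433 CPM between 2500 and 4000 CPM to 11302.5, 7956 and 8210 CPM above.

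Gzmd and Col1a2, which were lower in the selection than in the remaining spots, dropped at different points of the marker sum. Gzmd stood at 349, 2095 and 691 CPM between 1000 and 1500 CPM, and at 0, 97.8 and 50.1 CPM between 1500 and 2500 CPM. Col1a2 still stood at 947, 1061 and 1281 CPM between 1500 and 2500 CPM and reached 121, 117 and 146 CPM from 4000 CPM up. Cxcl14, not called against the remaining spots, had no steady course. It stood at 885, 404 and 816 CPM in the lowest bin, at 1974, 1311 and 2306 CPM just below the threshold and at 1459, 1176 and 1847 CPM in the highest. These levels are a description of spots ordered by the selecting genes.

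**Figure D5:**
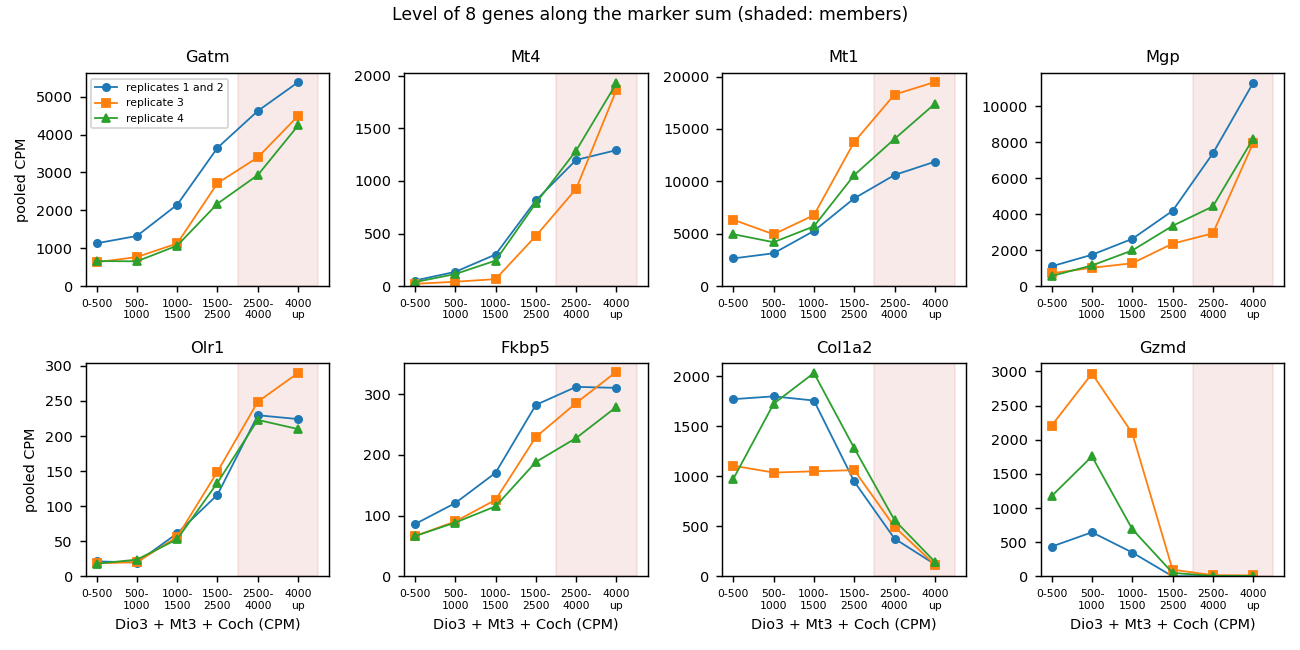
Pooled CPM of 8 genes (vertical, linear axis from 0) in bins of the summed CPM of Dio3, Mt3 and Coch (horizontal), 1 line for each library, with the bins of the chosen spots shaded. Gatm, Mt4, Mt1, Mgp, Olr1 and Fkbp5 are already raised in the bin of 1500 to 2500 CPM, Gzmd has dropped there to at most 97.8 CPM, and Col1a2 falls to at most 146 CPM in the last bin.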

How the data were processed

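Visium libraries of mouse uterine sections were deposited by the authors as UMI counts per gene and spot, whole numbers without normalization. Per the file headers the matrices come from Space Ranger 1.2.2, while Cell Ranger and the build mm10 stand in the submitters' processing notes. The strand setting, the aligner's options and the annotation release are not given in the sources. Positions of the spots in the section were not used here. Of 32285 gene IDs, 32158 were found in GENCODE release M21, which gave coordinates, and promoter windows came from RefSeq (GRCm38.p6, 4 of 4 genes matched).

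The spots and the 40 gene lists were chosen with earlier results of these data known. Counts were summed per library and class of spots (9 sums for the class comparisons, 6 for each division of the chosen spots). They were fitted with edgeR 4.0.16 (R 4.3.3; filterByExpr, TMM scaling, glmQLFit and glmQLFTest, library as a block), without the 8 rule genes in the fit and in the library sizes. Calls needed a fold change of 1 or more in either direction on the log2 scale, with 0.05 as the limit for the adjusted p. Standard errors are the log2 fold change divided by the square root of F. Shares carry exact (Clopper-Pearson) 95% binomial intervals. Labels speak of biological replicates, 1 library holds 2 of them, and all classes come from the same libraries. Doublets were not called, because each spot covers several cells.

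Named genes were up to 10 rises and 8 falls per class comparison (6 and 6 among the chosen spots) with 1 sign in all 3 libraries, a mean of 5 or more on the log2 CPM scale, and without clone names, and up to 3 called genes of each list with the smallest p. Genes of the thyroid hormone, metallothionein, creatine and Dlk1-Dio3 lists could be named whatever their result. The text gives a selection, and 2 genes of it are not reported here. Srd5a1, Akr1c18, Wnt6, Crabp2, Rbp4 (against the Prl8a2-high spots), Bmp2, Klk8, Fbln2, Cd14, Hand2, Hsd11b2, Prl3c1 (against the remaining spots), Rgs5 (among the chosen spots), Notch3, Prlr and S100g were named outside that rule or after their values were seen. The fit was tested on simulated data. Alternatives were DESeq2 1.42.0 and its size factors, the fits without the block, without the filter and without a minimum fold change, rule genes kept, other limits of the rule, classes from thinned spots and each library left out. Tables and plots were made with pandas 2.3.3, scipy 1.17.1, numpy 2.4.6 and matplotlib 3.10.9 under Python 3.11.15.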

Additional observations from a re-analysis of the deposited data

How the results depend on the processing

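Of the genes named in each comparison, 98 of 120 against the Prl8a2-high spots, 101 of 116 against the remaining spots, 30 of 56 between the Prl8a2 divisions and 0 of 1 between the Coch divisions kept their direction and call under every alternative run that tested them. Some runs did not test every named gene. Of the 56 genes, 43 were tested with a marker sum of at least 4000 CPM and 54 with the Prl8a2 limit of 30000 CPM. Of the 120 genes, 115 were tested in the fit over the 2 classes compared. The only turn was Gzmc against the Prl8a2-high spots, from -1.34 to a log2 fold change of 0.024 with classes from thinned spots. Without the minimum fold change 2282 genes were higher and 2557 lower against the Prl8a2-high spots, 2056 and 2308 against the remaining spots, 815 and 642 between the Prl8a2 divisions and 2 were higher between the Coch divisions. Without the filter 2192 genes were lower against the remaining spots, and 3 were higher and 4 lower between the Coch divisions. Without the replicate block 144 genes were lower between the Prl8a2 divisions and 0 between the Coch divisions.

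Between the Prl8a2 divisions DESeq2 gave 116 and 106, a marker sum of at least 1500 CPM 289 and 361, one of at least 4000 CPM 95 and 114, and a Prl8a2 limit of 30000 CPM 135 lower, where the number of spots changed too. Between the Coch divisions DESeq2 called 0 lower, keeping the rule genes 1 higher, at least 5000 UMIs per spot 2 higher, a marker sum of 1500 CPM 1 higher and 18 lower, and thinned classes 5 lower. Leaving out a library gave 860 to 1304 higher and 1059 to 1474 lower genes against the Prl8a2-high spots, 510 to 552 and 1235 to 1505 against the remaining spots, 170 to 206 and 163 to 283 between the Prl8a2 divisions, and 0 to 10 and 0 to 7 between the Coch divisions. The mean share of chosen spots was 19.3% at 1500 CPM, 7.37% at 4000 CPM and 10.8% with the Prl8a2 limit of 30000 CPM. The causes were not tested. Low genes rest on few UMIs, most of all in the 17 Prl8a2-high spots of replicate 3.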

Other observations

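Rrm2, a ribonucleotide reductase gene listed for the polyploid decidual cell cycle, stood at 3873, 3877 and 3576 CPM in the Dio3 Mt3 Coch spots and at 1860, 1716 and 1769 CPM in the remaining spots (log2 difference 1.08 ± 0.08, edgeR adjusted p = 1.64e-06). It became 0.98 when the Prl8a2-high spots were counted among the remaining ones. Cdk6, a kinase of the cell cycle, rose by 1.23 ± 0.12, and Cdkn1c, an inhibitor of it, fell by 1.53 ± 0.24. Against the Prl8a2-high spots Rrm2 and Cdk6 were not called and Cdkn1c was called higher. The polyploid cell cycle list summed to 4383 to 4759 CPM in the Dio3 Mt3 Coch spots and to 3629 to 4694 CPM in the Prl8a2-high spots. In the remaining spots it summed to 2801 to 3088 CPM. The Wnt5a ligand gene stood at 5.31, 8.78 and 10.2 CPM against 108, 101 and 99.7 CPM in the remaining spots and fell by 3.61 ± 0.25. Spp1, the osteopontin gene, fell by 5.31 ± 0.19 from 250, 568 and 359 CPM to 4.35, 19.7 and 7.38 CPM. Both Wnt5a and Spp1 were called higher against the Prl8a2-high spots. Angpt2, an antagonist of vessel stabilization, fell by 3.02 ± 0.22 against the remaining spots and by 4.07 ± 0.23 against the Prl8a2-high spots.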
